A study of Mus musculus with 2 samples.

Results

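The GIMAP genes (GTPases of immunity-associated proteins) encode a family of guanine nucleotide-binding proteins made mainly by lymphocytes. The 8 genes described here, Gimap1, Gimap3, Gimap4, Gimap5, Gimap6, Gimap7, Gimap8 and Gimap9, were taken by symbol from the deposited gene table of 55246 loci, and all 8 were present. They were measured by RNA sequencing in colonic regulatory T cells (Treg cells), the suppressive CD4 lineage defined by the factor Foxp3, taken from the lamina propria, a connective tissue beneath the gut epithelium, of female mice. There were 2 genotypes with 1 library each: WT, and Exon2KO, in which the series' title gives the Foxp3 allele as lacking exon 2 (Foxp3∆2). The mouse strain, age, zygosity of the allele, sorting scheme and pooling of animals are not given in the sources used here. The question put to these data is what the allele changes in the RNA of Treg cells in the colon. The spread within a genotype is unknown without replicates, and every interval below covers counting error only.

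GIMAP proteins share a GTPase domain and differ at their ends, where some carry a membrane anchor that holds them on lysosomal, endoplasmic reticulum, Golgi or mitochondrial membranes. The family is best known for keeping lymphocytes alive outside the thymus: rodents without functional Gimap5 lose peripheral T cells, and Gimap1 is needed for the survival of mature T and B cells. Family members have been linked to BCL2 proteins, to the kinase GSK3 and, through Gimap6, to the ATG8 proteins of autophagy.

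The Exon2KO library held fewer reads of the family than the WT library. The 8 genes together had 56402 reads in WT and 26164 in Exon2KO, which is 0.346% of all WT reads (95% Clopper-Pearson interval 0.344 to 0.349) and 0.170% of all Exon2KO reads (0.168 to 0.172). Scaled by TMM (trimmed mean of M-values, which sets library sizes so that most genes do not differ), these sums were 3594 and 1636 CPM (reads over the effective library size, as edgeR scales them). The log2 ratio of Exon2KO over WT was -1.13 (95% interval -1.16 to -1.11), a 2.20-fold lower level. The library totals were 16281133 reads for WT and 15412425 for Exon2KO. In bulk RNA, fewer cells of a type and less RNA per cell cannot be told apart.

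All 8 members passed the minimum of 10 reads over both libraries, and all 8 also had at least 100. The ratio was below 0 for 8 of 8 with TMM scaling and for 7 of 8 when libraries were scaled to T cell genes, where Gimap8 was above 0. Of the 17363 genes tested, 49.7% had a ratio below 0. A 2-fold difference was used as the threshold, and 5 of the 8 members were past it in the lower direction (Gimap3, Gimap4, Gimap5, Gimap6 and Gimap7) and 0 in the higher direction. Over all genes tested, 8.14% were past 2-fold lower and 9.38% past 2-fold higher. Among the 10906 genes with at least 100 reads, the shares were 4.44% lower and 3.79% higher. The median log2 ratio of the members was -1.08, against 0.0035 for all genes tested, whose middle 50% ran from -0.33 to 0.35. Several members lay close to the threshold: with total counts in place of TMM, 3 of 8 were past it, against 7.12% of all genes tested, since that scaling moved every ratio up by 0.106.

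The members lie side by side on chromosome 6 (mm10, GRCm38), in a cluster of 124 kb in which the table lists no other protein-coding gene apart from the read-through locus Gm28053. In chromosomal order they are Gimap8 (48647234 to 48660875), Gimap9 (48676129 to 48679114), Gimap4 (48684549 to 48692060), Gimap6 (48701582 to 48708225), Gimap7 (48718621 to 48724636), Gimap1 (48739054 to 48743795), Gimap5 (48746197 to 48754210) and Gimap3 (48764464 to 48770851). Gimap6 and Gimap3 are on the minus strand and the other 6 on the plus strand. The deposited coordinates and gene lengths of all 8 are the same as in GENCODE M21.

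The genes of this cluster arose by duplication, so the question of whether reads can be told apart comes before the values. Of the 28 pairs of members, 1 pair, Gimap3 and Gimap5, shared identical stretches of 100 bases in their transcripts. Their coding sequences were 87.9% identical over 902 aligned bases, against 52.9% to 64.9% for the other 27 pairs. The longest identical coding run of the pair was 140 bases, at positions 175 to 314 of the Gimap3 coding sequence and 187 to 326 of that of Gimap5, counted from the start codon. It is shown because reads inside it cannot be assigned to either gene.
Gimap3 and Gimap5 shared coding run: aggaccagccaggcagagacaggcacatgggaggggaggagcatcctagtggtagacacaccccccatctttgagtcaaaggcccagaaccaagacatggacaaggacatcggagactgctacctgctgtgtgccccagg
Such 100-base stretches made up 1.65% of those of the Gimap3 transcripts and 0.966% of those of Gimap5, while no other pair shared an identical stretch of 50 bases, and the longest coding run of any other pair was 17 bases. Gimap3 and Gimap5 shared 190 different stretches of 50 bases, more than the printed run alone can hold. The division of reads between Gimap3 and Gimap5 is thus uncertain over more than this run, and reads with mismatches could add to it.

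Gimap7, whose protein can stimulate GTP hydrolysis by other members of the family, had the lowest ratio. Its reads numbered 5342 in WT and 1737 in Exon2KO, or 340 and 109 CPM. The log2 ratio was -1.65 (-1.73 to -1.57), 3.13-fold lower, and 3.54% of all genes tested had a lower ratio. Its interval did not overlap that of any other member.

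Gimap4, Gimap6 and Gimap3 had the most reads, and their ratios lay close together. Gimap6, whose protein binds the autophagy protein GABARAPL2, counted 16881 WT reads and 7532 Exon2KO reads, which gives a log2 ratio of -1.19 (-1.23 to -1.15). Gimap4, linked to the pace of T cell death after a death signal, had 11052 and 4908 reads, a ratio of -1.20 (-1.25 to -1.15). These 2 adjacent genes could not be told apart by their ratios. Gimap3, a close paralog of Gimap5, has been linked in mice to the tissue-specific segregation of mitochondrial DNA variants. It had 12743 and 6116 reads, at -1.09 (-1.13 to -1.04). Its interval lay above those of Gimap4 and Gimap6.

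The survival genes Gimap5 and Gimap1 had smaller differences, although the interval of Gimap5 overlapped those of Gimap3, Gimap4 and Gimap6. Gimap5 counted 2509 WT and 1212 Exon2KO reads, with a log2 ratio of -1.08 (-1.18 to -0.98), 2.11-fold lower with an interval that reaches below 2-fold. Gimap1 had 4815 and 2595 reads, a ratio of -0.92 (-0.99 to -0.85) or 1.89-fold lower, short of the threshold. Of the exonic bases of Gimap1, 36.0% are also exonic in Gimap1os on the opposite strand. The use of strand in counting is not given in the sources used here, so reads of the 2 genes may be mixed. Gimap1os itself had 223 and 99 reads, a ratio of -1.18 (-1.55 to -0.85).

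Gimap9 and Gimap8, at one end of the cluster, had the ratios nearest to 0. Gimap9 counted 2115 WT and 1237 Exon2KO reads, at -0.80 (-0.90 to -0.70) or 1.74-fold lower. Gimap8 has the longest coding sequence of the members, at 2064 bases, which holds several GTPase domains, against 879 for Gimap7 and 873 for Gimap9. It had 945 and 827 reads, a ratio of -0.22 (-0.36 to -0.08) or 1.16-fold lower, and its interval lay apart from those of the other 7 members. Of all genes tested, 31.3% had a ratio below that of Gimap8. Without it the summed ratio of the family was -1.16 (-1.18 to -1.14).

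Compared per length, as CPM per kilobase of gene, the members spanned a 23.6-fold range of levels in WT and a 12.0-fold range in Exon2KO. In WT the level was 383 for Gimap4, 315 for Gimap3 and 308 for Gimap6. The intervals of Gimap3 and Gimap6 overlapped, while Gimap4 stood above both. Gimap7 followed at 146, Gimap1 at 99.8, Gimap9 at 82.1, Gimap5 at 38.5 and Gimap8 at 16.3, with no overlap between neighbours in this order. In Exon2KO the same 3 genes led, at 167 for Gimap4, 148 for Gimap3 and 135 for Gimap6. The order then changed by 1 gene: Gimap1 was at 52.8, Gimap9 at 47.1 and Gimap7 at 46.7, the last pair with overlapping intervals. Gimap5 at 18.3 and Gimap8 at 14.0 were again the lowest.

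**Figure D1:**
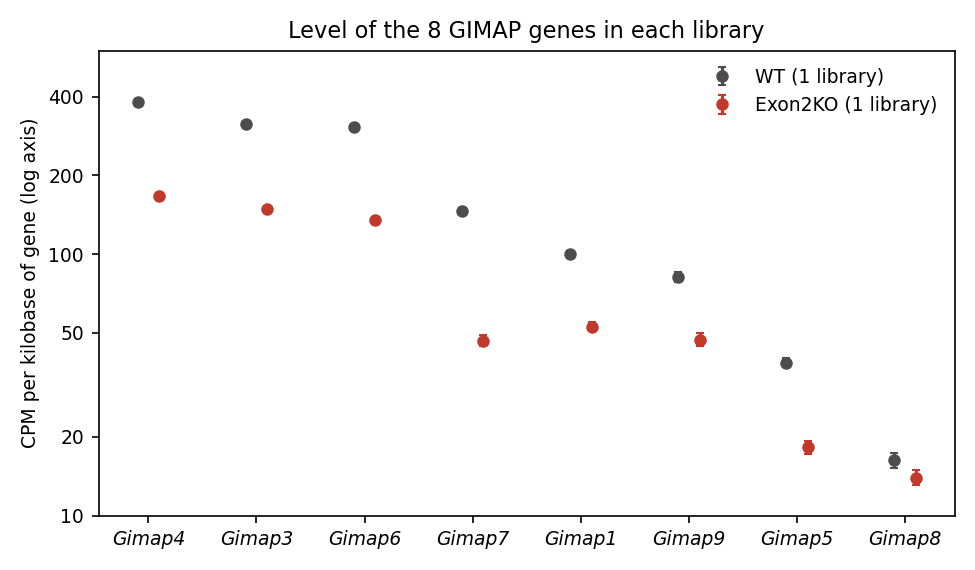
Level of each GIMAP gene in the WT and the Exon2KO library, as CPM per kilobase of gene on a log axis; bars are exact 95% Poisson intervals for counting error, often smaller than the points. Exon2KO lies below WT for each gene with this TMM scaling (for Gimap8 not when scaled to T cell genes), from 383 and 167 for Gimap4 to 16.3 and 14.0 for Gimap8.

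The make-up of the family's reads differed most, relative to their size, for 2 genes. Gimap7 held 9.47% of the GIMAP reads in WT (9.23 to 9.72) and 6.64% in Exon2KO (6.34 to 6.95). Gimap8 held 1.68% (1.57 to 1.78) and 3.16% (2.95 to 3.38). Gimap6 held the largest share of reads in both libraries, 29.9% and 28.8%, followed by Gimap3 with 22.6% and 23.4% and Gimap4 with 19.6% and 18.8%. Gimap1 held 8.54% and 9.92%, Gimap5 4.45% and 4.63%, and Gimap9 3.75% and 4.73%. These shares need no scaling between the libraries.

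**Figure D2:**
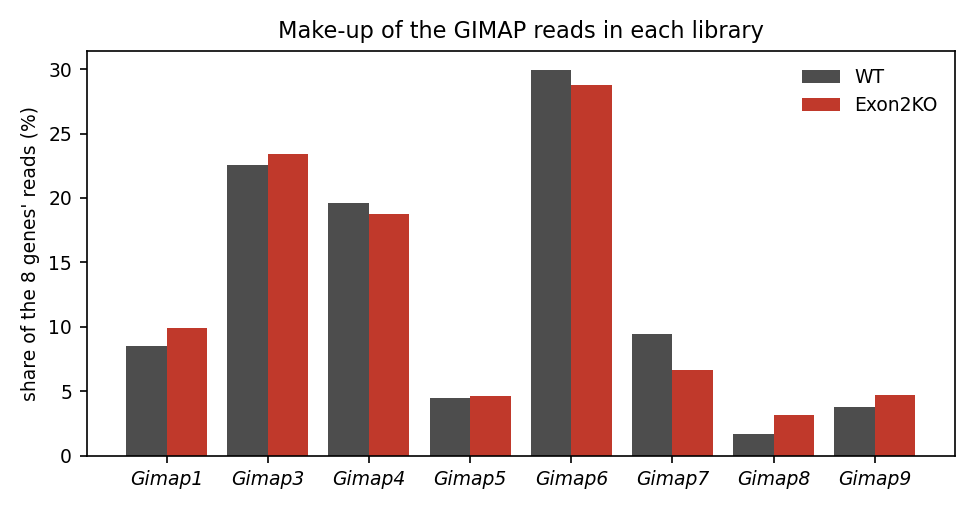
Share of the reads of the 8 GIMAP genes held by each gene, in percent, in the WT and the Exon2KO library. The bars of Gimap7 (9.47% and 6.64%) and Gimap8 (1.68% and 3.16%) differ most relative to their size.

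The promoters of 3 members are shown, from RefSeq on GRCm38.p6, from 250 bases before to 50 bases after the gene start: Gimap7 with the lowest ratio, Gimap8 with the ratio nearest to 0, and Gimap3, which holds the only forkhead match of the family. Capitals mark matches on either strand to 4 short motifs, named after the forkhead, GATA, RUNX and ETS families of factors, and no matches overlap in these windows.
Gimap7 promoter, chr6:48718371-48718670, plus strand: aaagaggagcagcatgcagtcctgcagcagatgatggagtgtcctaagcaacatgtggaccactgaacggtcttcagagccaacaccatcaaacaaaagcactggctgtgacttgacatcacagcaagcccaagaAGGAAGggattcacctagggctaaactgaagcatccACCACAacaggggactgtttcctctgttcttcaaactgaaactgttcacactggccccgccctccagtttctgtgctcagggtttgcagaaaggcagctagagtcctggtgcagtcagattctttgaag
Gimap8 promoter, chr6:48646984-48647283, plus strand: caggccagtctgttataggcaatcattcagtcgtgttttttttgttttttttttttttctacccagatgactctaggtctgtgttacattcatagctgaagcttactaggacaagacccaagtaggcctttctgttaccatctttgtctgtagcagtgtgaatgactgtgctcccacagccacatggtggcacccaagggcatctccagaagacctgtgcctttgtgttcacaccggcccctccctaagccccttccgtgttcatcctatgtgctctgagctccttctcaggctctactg
Gimap3 promoter, chr6:48770802-48771101, minus strand: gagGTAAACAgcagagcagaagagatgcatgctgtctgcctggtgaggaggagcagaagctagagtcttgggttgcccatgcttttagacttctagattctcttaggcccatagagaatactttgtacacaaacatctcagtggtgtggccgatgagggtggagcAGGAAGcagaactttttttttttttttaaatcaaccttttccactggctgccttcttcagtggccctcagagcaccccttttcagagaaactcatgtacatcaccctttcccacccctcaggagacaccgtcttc
RefSeq gave 9 windows for the 8 members, with a second start for Gimap8. The forkhead letters TGTTTAC, a core bound by Foxp3 and its relatives, were found in 1 window, starting 247 bases before the Gimap3 start, and in 3.65% of all 32851 promoter windows. The RUNX letters TGTGGT were found in the windows of Gimap1, Gimap4 and Gimap7, and in 16.8% of all windows. For GATA factors the letters AGATAA were searched, with a match in 0 of the 9 windows and in 11.2% of all windows. The ETS letters AGGAAG were found in 7 of the 9 windows, those of Gimap1, Gimap3, Gimap4, Gimap5, Gimap7, Gimap9 and the second of Gimap8, against 35.4% of all windows. These are matches of letters in short windows and not measured binding sites.

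Beside the cluster, outside the outermost members, no tested locus was past 2-fold lower. Within 500 kb on either side the table holds 53 other loci, of which 24 had 0 reads in both libraries and 25 passed the minimum of 10 reads. On the side of Gimap8, 0 of 12 tested loci were past 2-fold in either direction, and the nearest with at least 100 reads, AI854703 at 13.5 kb, had 176 and 188 reads (log2 ratio 0.07, -0.24 to 0.37). On that side Zfp862-ps, a pseudogene, lay just inside the threshold with 134 and 68 reads (-0.98, -1.45 to -0.57). Between the members, 2 of 4 tested loci were past 2-fold lower: Gimap1os, and Gm28053 with 64 and 25 reads (-1.31, -2.11 to -0.70). Gm28053 runs from the start of Gimap7 into Gimap5, and shares exonic bases with Gimap7, Gimap1 and Gimap5 (3.48%, 6.44% and 3.69% of those of each member), so its reads are not independent of theirs.

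On the side of Gimap3 the nearest loci with reads went the other way. Tmem176b, 63.0 kb away, counted 1250 WT and 4059 Exon2KO reads, with a ratio of 1.67 (1.58 to 1.77). Tmem176a, 70.1 kb away, had 895 and 2971 reads, at 1.70 (1.60 to 1.81). This pair of overlapping genes encodes related membrane proteins that are abundant in RORγt-expressing lymphocytes and in myeloid cells. They were 3.18-fold and 3.25-fold higher. Farther on, Malsu1 was at -0.27 (-0.44 to -0.10), and Tra2a at 0.35 (0.25 to 0.46). Aoc1, with 1 and 16 reads, was the third locus past 2-fold higher, with a lower interval limit of 1.29.

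**Figure D3:**
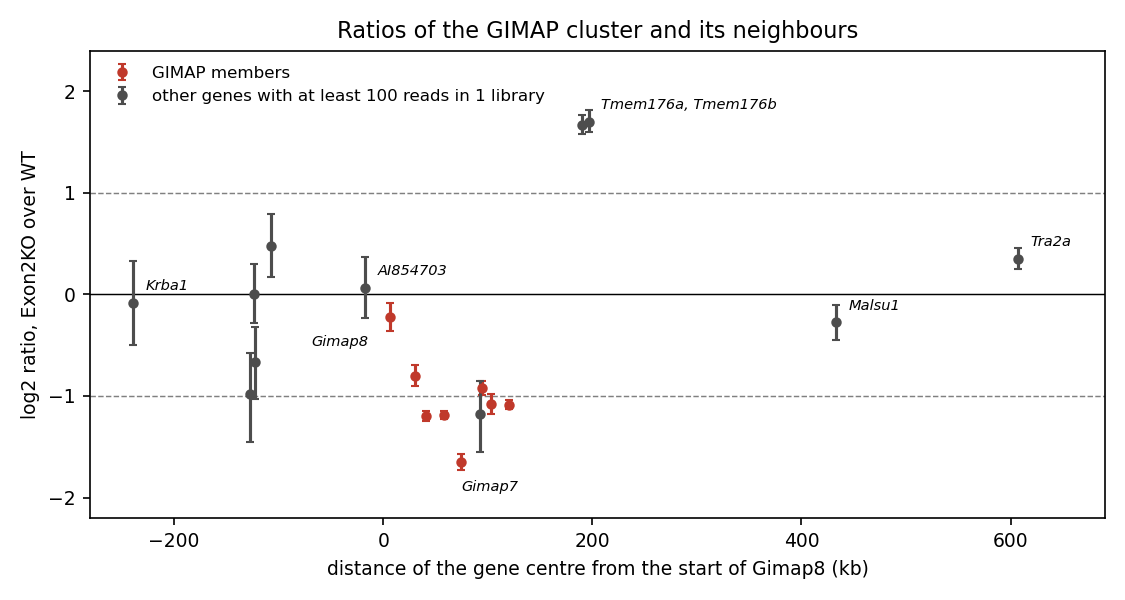
Log2 ratio of Exon2KO over WT for the GIMAP members and for other loci with at least 100 reads in 1 library, against the distance in kb of the gene centre from the start of Gimap8; bars are 95% intervals for counting error and dashed lines mark 2-fold. The members lie between -0.22 and -1.65 with TMM scaling (Gimap8 is above 0 when scaled to T cell genes), and Tmem176a and Tmem176b lie at 1.70 and 1.67.

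The label was checked against marker genes. All 17 genes of the T cell identity list had reads in both libraries. Foxp3, the targeted gene, counted 6991 WT and 20946 Exon2KO reads (445 and 1310 CPM), with a ratio of 1.56 (1.52 to 1.60). A count over the whole gene does not check the loss of 1 exon. All 13 Treg genes of the table had reads in both libraries, but 7 were past 2-fold lower and only Foxp3 was past it higher. The lowest of them, named here after their values were seen, were Ikzf2, which encodes the transcription factor Helios (8476 and 440 reads, -4.29, -4.44 to -4.16), Lrrc32, a surface carrier of latent TGF-beta (2496 and 526 reads, -2.27, -2.41 to -2.14), and Ikzf4, a transcription factor of the same family as Helios (1077 and 256 reads, -2.09, -2.30 to -1.90). Ctla4, an inhibitory receptor of Treg cells, was at 0.71 (0.70 to 0.72). Plasma cell genes were also abundant: the 9 listed made up 6.17% of reads in WT and 5.72% in Exon2KO, so the libraries are not T cell RNA alone.

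Set against T cell RNA, the difference of the family was smaller. The T cell identity list was itself at -0.35 (-0.36 to -0.34) for its summed reads, with 14 of 17 genes below 0 and 1, Cd5, past 2-fold lower. There were 329 GIMAP reads per 1000 reads of that list for WT and 191 for Exon2KO, at a log2 ratio of -0.78 (-0.80 to -0.76) or 1.72-fold lower. On this scale Gimap7 was at -1.30 (-1.37 to -1.22) and was the only member past 2-fold, where 5.5% of all genes tested were past 2-fold lower. Gimap4 was at -0.85, Gimap6 at -0.84, Gimap3 at -0.73, Gimap5 at -0.72, Gimap1 at -0.57 and Gimap9 at -0.45. Gimap8 was at 0.13 (-0.003 to 0.27), a difference not detectable at this depth.

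Other lymphocytes and endothelial cells also express GIMAP genes, and their markers were counted for that reason. The 10 B cell markers had 2223 reads in WT and 1779 in Exon2KO in all, or 142 and 111 CPM, a log2 ratio of -0.35 (-0.44 to -0.26). Scaled to T cell identity reads that ratio was 0.0043 (-0.086 to 0.095). Of the 8 that were tested, 2 were past 2-fold lower (among them Ms4a1 with 47 and 10 reads) and 1 higher (Blk with 44 and 160). Pax5 had 1 and 3 reads. Cd79a, which plasma cells also express, and Cd79b held most of the list's reads. The 12 endothelial markers had 1172 and 1393 reads, or 74.7 and 87.1 CPM, a ratio of 0.22 (0.11 to 0.34), with 6 past 2-fold higher, 0 lower and a median of 1.18. Scaled to T cell identity reads, the ratio of their summed reads was 0.57 (0.46 to 0.69). Cdh5 had 0 reads in WT and 15 in Exon2KO. Most reads of that list were of Pecam1 (917 and 834), which lymphocytes also express. The part of B cells or endothelial cells in the GIMAP difference was not tested.

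Among the other markers, the 8 CD8 T and NK cell genes had 202 and 162 reads in all (2 of 6 tested past 2-fold higher, 1 lower, median 0.01). The 11 myeloid genes had 629 and 802 reads (1 of 5 tested lower, median 0.32). The 10 epithelial genes had 94.2 CPM in sum in WT and 372 in Exon2KO, with 8 of 10 past 2-fold higher and a median of 2.38. The 9 plasma cell genes had a median of -0.19 with 1 past 2-fold higher. Their summed log2 ratio was -0.22 with TMM and turned to 0.14 when libraries were scaled to T cell identity reads. The part of all these cell types was likewise not tested.

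Other immune GTPases had a summed ratio nearer 0 than the GIMAP genes. Of 20 genes of the GBP, IRG and MX families, which are induced by interferons, 0 were past 2-fold lower and 1, Gbp11 with 13 and 34 reads, was past it higher. In all, 16 of the 20 were below 0, with a median of -0.33. The lowest ratios belonged to Gbp7 (-0.95, -1.06 to -0.84) and Gbp3 (-0.89, -0.96 to -0.82), and the highest among those with at least 100 reads to Gbp8 (0.31, 0.21 to 0.41). Gbp7 and Gbp3 thus lay within the range of the GIMAP members. The summed ratio of the 20 was -0.36 (-0.38 to -0.34), against -1.13 for the GIMAP sum, and the difference between the families was not tested. Scaled to T cell identity reads, the 2 sums were at -0.0082 (-0.029 to 0.013) and -0.78. GBP and TGTP genes have close paralogs, so their single counts are uncertain.

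Genes of resting and recirculating T cells were divided. Of 16 genes, 4 were past 2-fold lower and 0 higher, with a median of -0.08 and a log2 ratio of summed reads of -0.15. Among the 4 were Klf2, a transcription factor of quiescence (-1.08, -1.19 to -0.98), its target S1pr1, a receptor for exit from tissue (-1.58, -1.74 to -1.44), and Lef1, a transcription factor of naive T cells (-2.21, -2.55 to -1.93). With total counts Klf2 was at -0.98 and 3 of the 16 were past 2-fold lower. The ratio of Klf2 lay within the range of the GIMAP members. Il7r, the receptor for the survival cytokine IL-7, was at 0.39 (0.33 to 0.46), and Foxo1 and Btg1 were at 0.03 and -0.02. In all, 9 of the 16 were below 0 and 7 above. Btg1 held 32585 of the list's 99147 WT reads and 32825 of its 91267 Exon2KO reads, so it weighs heavily in the summed ratio. Among 15 activation genes, 5 were past 2-fold lower and 0 higher, with a median of 0.24, whereas the log2 ratio of their summed reads had the other sign (-0.31). The 13 Treg genes, of which 7 were lower and 1 higher, had a median of -1.15, as low as that of the GIMAP members (-1.08), and a log2 ratio of summed reads of -0.06. The summed ratios of these 3 lists turn above 0 when libraries are scaled to T cell identity reads, and that of the Treg genes also with total counts. Ctla4, Tnfrsf4 and Tnfrsf18 are in both the activation and the Treg list. Of these, Ctla4 alone had 79358 WT and 132229 Exon2KO reads. The sums were 349094 and 286533 reads for the activation genes, and 233060 and 227020 for the Treg genes. Both sums thus rest largely on Ctla4, whose ratio was above 0, and sums without it are not given here.

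Of 15 genes of survival and autophagy tied to GIMAP proteins, 1 was past 2-fold lower and 0 higher, and the median was -0.18. Bcl2l1, which encodes the survival protein BCL-XL, counted 1664 WT and 530 Exon2KO reads, with a ratio of -1.67 (-1.82 to -1.54). Bcl2 (-0.72, -0.92 to -0.52) and the death-promoting Bcl2l11 (-0.63, -0.77 to -0.49) were lower by less than 2-fold, and Bax was at 0.13 (0.03 to 0.22). Gabarapl2, which encodes the binding partner of Gimap6, was at 0.10 (0.03 to 0.17) and Gsk3b at 0.11 (-0.04 to 0.27). The autophagy receptor gene Sqstm1 was at -0.87 (-0.89 to -0.84).

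**Figure D4:**
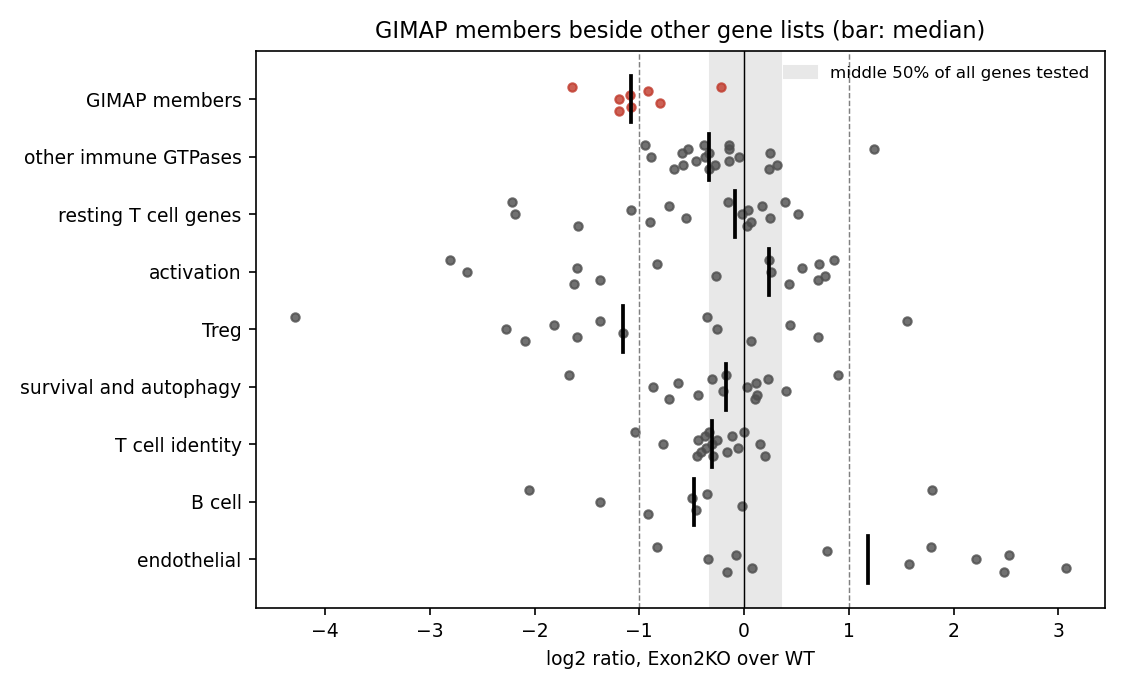
Log2 ratio of Exon2KO over WT for single genes with at least 10 reads, by gene list; black bars are list medians, dashed lines mark 2-fold and the grey band holds the middle 50% of all genes tested. The GIMAP median is at -1.08, against -1.15 for Treg genes, -0.33 for other immune GTPases and -0.08 for resting T cell genes; Gimap8, at -0.22 here, is above 0 when scaled to T cell genes.

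The authors' deposited table gives an adjusted p-value below 0.05 for 1 of the 8 members, Gimap7 (0.00403, log2 fold change -1.65), against 2.21% of its 22447 genes called lower by that rule. In the authors' deposited table the adjusted p-values of the other members run from 0.0754 for Gimap4 to 1 for Gimap8. With 1 library per genotype such values rest on an assumed spread. With a relative spread between samples (biological coefficient of variation, BCV) of 0.2 assumed in the exact test of edgeR, Gimap7 alone among the members was both past 2-fold lower and under an adjusted p-value of 0.05 (adjusted p-value 0.00311), a pair of criteria that 3.09% of all genes met. With an assumed 0.4 none of the 8 met both, the lowest adjusted p-value being 0.859 for Gimap7, against 0.449% of all genes.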

How the data were processed

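The data are gene-level values from RNA sequencing of colon lamina propria Treg cells, 1 WT and 1 Exon2KO library (16281133 and 15412425 reads). Raw counts of reads for each gene were deposited by the authors, with FPKM values, a scaled count signal, and a log2 fold change with p-values and adjusted p-values whose tool is not stated. The submitters' processing notes name HISAT2 2.0.5, StringTie 1.3.3b, featureCounts 1.5.0-p3, DESeq2 1.16.1 and mm10, without roles. Per the labels' protocols, 1 NEBNext Ultra library was made per sample; the handling of strand and of reads that fit several genes is not given in the sources used here.

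Counts were scaled with TMM factors over all loci (edgeR 4.0.16, R 4.3.3; 0.964 for WT and 1.04 for Exon2KO). Log2 ratios carry a prior count of 2. The 95% intervals convert a Clopper-Pearson interval of the read share. Genes needed 10 reads over both libraries, and a ratio of 2-fold was the threshold, in place of a replicate test. The ratio and interval code was tested on simulated data. Sequence similarity used GENCODE M21 transcripts (Biopython 1.88). Named genes are all members, Foxp3, neighbours with 100 reads in 1 library, and, in the 12 other lists, genes past 2-fold with 100 reads or otherwise the highest and lowest; not all of these are printed, and a few others (Gm28053, Aoc1, Pax5, Cdh5, Gbp11 and others with low counts or shorter differences) were chosen after their values were seen. A few list genes are not reported here. The members and lists were chosen with earlier results of these data known. Alternatives were scaling, prior count, fold, read minimum, flank and assumed spread.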

Additional observations from a re-analysis of the deposited data

How the results depend on the processing

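The direction of the family and of 7 members held under every scaling and prior count tried; Gimap8 alone reversed, to 0.13, when libraries were scaled to T cell identity reads. The summed log2 ratio of -1.13 became -1.03 with total counts and -0.78 with T cell identity reads, as these scalings move all ratios by 0.106 and 0.352. The other scalings and the prior of 0.5 left all 8 ratios within their intervals.

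The 5 members past 2-fold lower became 3 with total counts, 7 at a fold threshold of 1.5, 0 at a threshold of 4, and 1 and 0 where an adjusted p-value below 0.05 with an assumed BCV of 0.2 and 0.4 was also required. Over all genes, 1628 were higher and 1413 lower. A fold threshold of 1.5 gave 2922 and 2647, a threshold of 4 gave 499 and 408, no read minimum gave 2643 and 2844, a minimum of 100 reads gave 413 and 484, an assumed BCV of 0.2 gave 579 and 536, and 0.4 gave 86 and 78. With total counts 60.2% of calls were higher, against 53.5% with TMM, and the median ratio of all genes was 0.11. Scaling to T cell identity reads put 2565 genes higher and 955 lower (72.9% higher), with that median at 0.35. In the lists, a prior of 0.5 put 1 survival and autophagy gene past 2-fold higher (0 before), and total counts left 0 T cell identity genes (1 before) and 3 resting T cell genes (4 before) lower. A flank of 250 kb left the numbers of neighbours past 2-fold at 3 and 2, and deposited FPKM gave the same order of members. No paired analysis was possible because each genotype has 1 library, which also leaves no library to omit. Depth limits loci with few reads, such as Gm28053 and Aoc1, and, among the members, Gimap8 (945 and 827 reads) on the T cell scale.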
